A study of Oryza sativa with 12 samples.

Results

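The tubulin genes of rice were followed over 4 lines that differ in gibberellin signalling. A gene was taken as a member when its symbol or a synonym, without a leading Os, was TUBA or TUBB followed by a number. This gave 9 genes, TUBA1 and TUBB1 to TUBB8, and all 9 were measured. On the Affymetrix rice array used, 17905 genes had a probe set annotated to 1 gene. RNA came from shoots harvested 5 weeks after germination from plants grown in a greenhouse. With 3 replicates of each line, each on its own array, 12 arrays were available. The labels call the replicates biological without saying how many plants each held, so the p-values measure the spread between these samples. The lines were gid1-3, a mutant of the gibberellin receptor gene GID1; gid2-1, a mutant of the F-box gene GID2; slr1 (k1001), a mutant of the DELLA gene SLR1; and T65 (Taichung 65), the cultivar in whose background all 3 mutants stand. Each mutant is represented by a single allele, and the labels do not say whether k1001 gained or lost function. The comparisons ask how tubulin transcript levels stand in each mutant against the parent, and in the mutants against each other.

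Alpha and beta tubulin form the heterodimers from which microtubules are built. In growing plant cells the cortical microtubules lie beneath the plasma membrane and guide the cellulose synthase complexes that lay down the wall, and in dividing cells microtubules form the preprophase band, the spindle and the phragmoplast. Gibberellin binds GID1, the bound receptor recruits the DELLA repressor SLR1, and an SCF complex with GID2 marks SLR1 for degradation, which releases shoot elongation. Plants carry several tubulin genes of each type, whose products are very similar in sequence, and their transcripts differ in amount between tissues.

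Values are the deposited array signals, scaled intensities in arbitrary units, so a level is compared only with the same probe set on other arrays. Where several probe sets match a gene, the one with the highest mean stands for it. Differences are on the log2 scale with their standard error, fitted with limma over 57194 probe sets, and a gene is called where the Benjamini-Hochberg adjusted p is under 0.05. The median signal ran from 58.0 to 75.8 over the arrays, the 95th percentile of the reporter controls from 28.3 to 52.2, and the lowest tubulin signal on any array was 789. The actin ratio of 3′ to 5′ probe sets, a sign of RNA quality, ran from 3.11 to 5.42 in gid1-3, from 2.89 to 6.11 in gid2-1, from 3.65 to 5.05 in slr1 and from 4.37 to 4.60 in T65. The same ratio of GAPDH ran from 0.743 to 3.88 in gid1-3, 2.04 to 13.1 in gid2-1 and 4.48 to 8.32 in slr1, against 1.24 to 4.68 in T65, and that of EF1a from 0.0557 to 0.161 in gid1-3, 0.00891 to 0.10 in gid2-1 and 0.0816 to 0.301 in slr1, against 0.0970 to 0.370 in T65. These ratios differed between lines and arrays, and their part in the tubulin differences was not tested. GID1 measured 6415, 6568 and 6238 in gid1-3, 6252, 6457 and 5628 in gid2-1 and 2467, 2456 and 2461 in slr1, against 4442, 4503 and 4537 in T65. SLR1 measured 822, 839 and 820 in gid1-3, 1103, 1177 and 1124 in gid2-1 and 1473, 1631 and 1592 in slr1, against 1234, 1355 and 1296 in T65. GID2 was not read, since one entry of that name has no probe set of its own and the other also bears the name GF14E. The labels do not say what the mutations do to the transcripts, so these levels do not check the labels.

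TUBA1 (gene 4343694), the alpha tubulin among the members, measured 6094, 6566 and 6295 in gid1-3, 8529, 8648 and 8160 in gid2-1 and 10751, 12350 and 11955 in slr1, against 10815, 10671 and 10906 in T65. All gid1-3 arrays lay below all gid2-1 arrays, which lay below those of slr1 and T65, and slr1 and T65 overlapped.

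Among the beta tubulins, TUBB8 (gene 4333632) measured 801, 971 and 789 in gid1-3, 1978, 2178 and 2314 in gid2-1 and 5329, 4880 and 4215 in slr1, against 4212, 4241 and 3784 in T65. Both gid mutants lay apart from each other and from T65, while 1 slr1 array fell within the range of T65. TUBB6 (gene 4338790) measured 1433, 1737 and 1763 in gid1-3, 4037, 4385 and 3302 in gid2-1 and 7674, 8332 and 9551 in slr1, against 5218, 4939 and 5537 in T65. The 4 lines did not overlap for TUBB6, with gid1-3 lowest and slr1 highest. TUBB4 (gene 4327550) measured 3193, 3243 and 3395 in gid1-3, 5536, 6148 and 6782 in gid2-1 and 9129, 10471 and 9624 in slr1, against 8605, 8657 and 8125 in T65. TUBB1 (gene 4326917) measured 3259, 3322 and 3770 in gid1-3, 4800, 5768 and 5326 in gid2-1 and 9982, 10904 and 12299 in slr1, against 7788, 7501 and 8530 in T65. TUBB4 and TUBB1 showed the same order as TUBB6, again with no overlap between any lines. The share of all probe sets whose 4 lines separate in this way was not counted.

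TUBB7 (gene 4334309) measured 4208, 3804 and 3843 in gid1-3, 4183, 3496 and 3904 in gid2-1 and 9086, 8217 and 7628 in slr1, against 5809, 5772 and 5512 in T65. The gid1-3 and gid2-1 arrays overlapped for TUBB7, both below T65, and slr1 lay above T65. TUBB2 (gene 4331315) measured 2682, 3053 and 2972 in gid1-3, 3800, 3978 and 3256 in gid2-1 and 4369, 5079 and 5295 in slr1, against 3783, 3777 and 4047 in T65. TUBB5 (gene 4328420) measured 8152, 7484 and 7344 in gid1-3, 11014, 8383 and 9911 in gid2-1 and 13666, 13120 and 11980 in slr1, against 10502, 10467 and 9551 in T65. For TUBB2 and TUBB5 the gid2-1 arrays overlapped those of T65, with gid1-3 below and slr1 above both. TUBB3 (gene 4341810) measured 8681, 9017 and 9057 in gid1-3, 9744, 9559 and 8936 in gid2-1 and 9643, 9833 and 9520 in slr1, against 8677, 8886 and 8592 in T65. The TUBB3 arrays of all lines lay close together, and only slr1 and gid2-1 stood clear of T65.

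**Figure D1:**
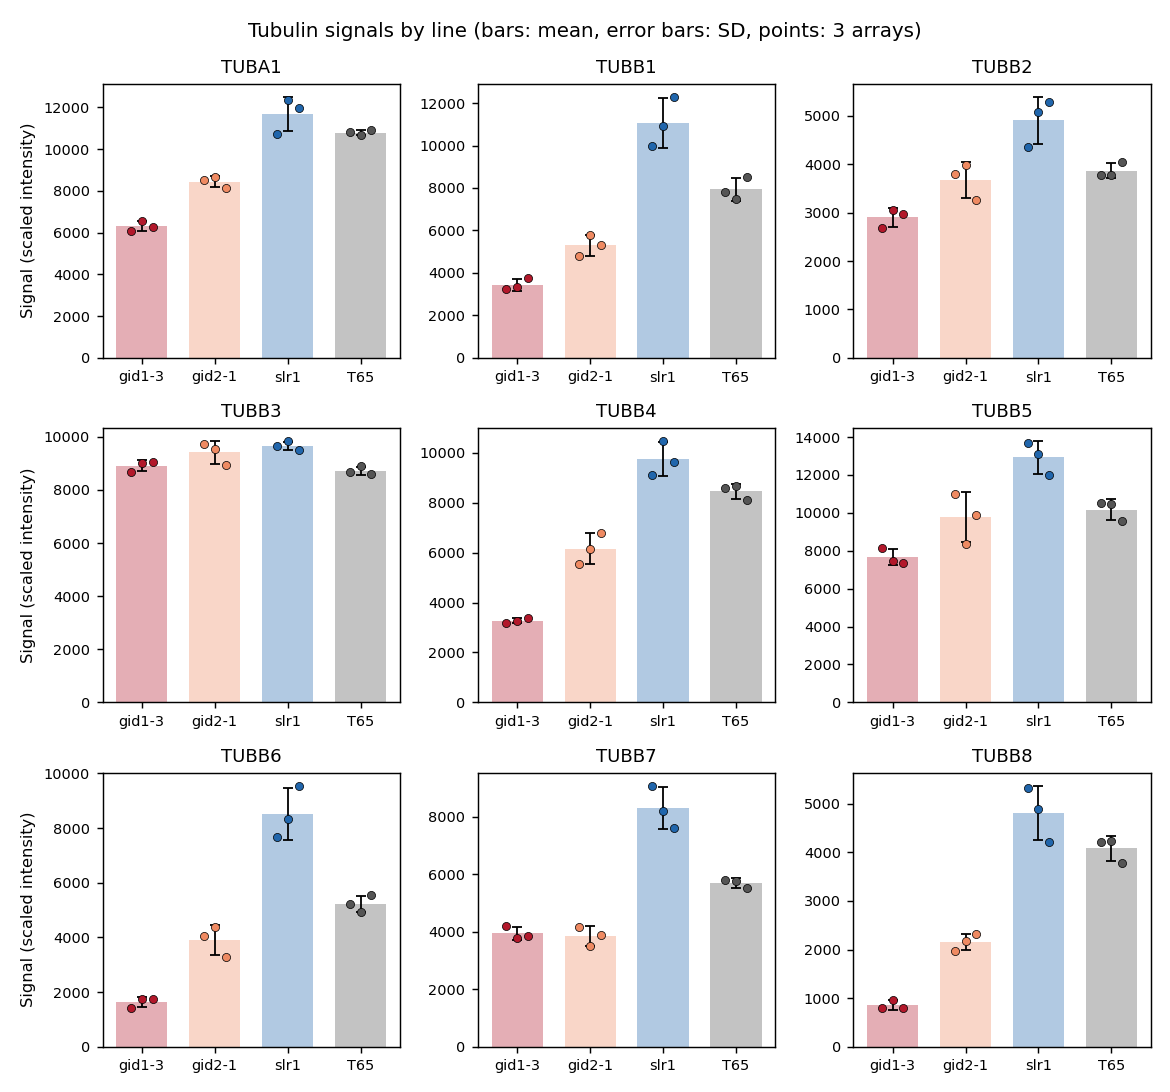
Signal of each tubulin gene (scaled intensity, linear axis from 0) in gid1-3, gid2-1, slr1 and T65, with bars for the mean of 3 arrays, error bars for the SD and points for the arrays. The gid1-3 bar is the lowest for TUBA1 and for TUBB1, TUBB2, TUBB4, TUBB5, TUBB6 and TUBB8, and TUBB3 is nearly level over the 4 lines.

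In gid1-3, the receptor mutant, 8 of the 9 tubulins fell and none rose against T65. TUBB8 was lowest relative to the parent, at 20.9% of its T65 level, followed by TUBB6 at 31.3%, TUBB4 at 38.7% and TUBB1 at 43.4%. The alpha tubulin TUBA1 was at 58.5%, TUBB7 at 69.3%, TUBB2 at 74.9% and TUBB5 at 75.3%. Over all probe sets 15.4% were called lower and 14.1% higher in this comparison, and lower calls made up 26.9% of the 4068 probe sets at least as bright as the dimmest tubulin. The median tubulin difference was -0.77, beside a median of all probe sets of -0.00.

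TUBB8 averaged 854 ± 102 in gid1-3 and 4079 ± 256 in T65 (SD, n = 3 arrays each), a log2 difference of -2.26 ± 0.10 (limma, adjusted p = 1.1e-10). TUBB6 averaged 1644 ± 184 in gid1-3 and 5231 ± 299 in T65, a difference of -1.67 ± 0.11 (limma, adjusted p = 9.5e-09). TUBB4 differed by -1.37 ± 0.07 (limma, adjusted p = 1.2e-09) and TUBB1 by -1.20 ± 0.09 (4.1e-08). These 4 beta tubulins were the members called at more than a 2-fold change. With the log2 signals of its 3 probe sets averaged, the last of them at the reporter level, TUBB4 was at -0.29 and not called (adjusted p = 0.58). TUBA1 averaged 6318 ± 237 in gid1-3 and 10797 ± 119 in T65, a difference of -0.77 ± 0.06 (limma, adjusted p = 7.2e-08). The smaller differences of TUBB7 (-0.53 ± 0.08), TUBB2 (-0.42 ± 0.09) and TUBB5 (-0.41 ± 0.09) had limma adjusted p of 5.7e-05, 0.0014 and 0.0021. TUBB5 lost its call when the arrays were centred on their medians (adjusted p = 0.12). TUBB3 was not called, at 0.03 ± 0.05 with a 95% interval from -0.08 to 0.14 (limma, adjusted p = 0.74). The TUBB3 difference was -0.12 after quantile normalization and -0.19 after spiked-control centring.

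Among the tubulins of the F-box mutant gid2-1, 6 of 9 fell against T65, none rose, and every difference was under 2-fold. TUBB8 was again lowest relative to the parent, at 52.8% of its T65 level, with TUBB1 at 66.6%, TUBB7 at 67.6%, TUBB4 at 72.5%, TUBB6 at 74.3% and TUBA1 at 78.2%. Over all probe sets 12.4% were called lower and 13.7% higher, and lower calls made up 28.4% of those at least as bright as the dimmest tubulin. The median tubulin difference was -0.43, and that of all probe sets 0.05.

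TUBB8 averaged 2156 ± 169 in gid2-1 against 4079 ± 256 in T65, a difference of -0.92 ± 0.10 (limma, adjusted p = 2.7e-06). TUBB1 averaged 5298 ± 485 in gid2-1 against 7940 ± 531 in T65, a difference of -0.59 ± 0.09 (limma, adjusted p = 1.1e-04). TUBB7 differed by -0.57 ± 0.08 (limma, adjusted p = 3.6e-05), TUBB4 by -0.46 ± 0.07 (1.6e-04), TUBB6 by -0.43 ± 0.11 (0.0074) and TUBA1 by -0.35 ± 0.06 (3.0e-04). The call of TUBB6 was lost when the prior variance had no trend with signal (adjusted p = 0.055). With probe sets of a gene averaged, TUBB1 (-0.67, adjusted p = 0.22) and TUBB4 (0.11, 0.875) were not called. TUBB2, TUBB5 and TUBB3 did not pass, with differences of -0.08 ± 0.09, -0.07 ± 0.09 and 0.11 ± 0.05 and limma adjusted p of 0.62, 0.70 and 0.16. Their 95% intervals ran from -0.26 to 0.11, from -0.26 to 0.12 and from -0.003 to 0.22, so falls larger than 0.26 lay outside them for TUBB2 and TUBB5.

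In slr1, the DELLA mutant, 5 of the 9 tubulins rose against T65 and none fell. TUBB6 stood at 162.4% of its T65 level, TUBB7 at 145.5%, TUBB1 at 139.0%, TUBB5 at 127.0% and TUBB2 at 126.7%. Over all probe sets 9.10% were called higher and 10.8% lower, and higher calls made up 27.2% of those at least as bright as the dimmest tubulin. The median tubulin difference was 0.34, beside -0.02 for all probe sets.

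TUBB6 averaged 8519 ± 953 in slr1 against 5231 ± 299 in T65, a difference of 0.70 ± 0.11 (limma, adjusted p = 2.2e-04). TUBB7 averaged 8311 ± 734 in slr1 against 5698 ± 162 in T65, a difference of 0.54 ± 0.08 (limma, adjusted p = 9.4e-05). TUBB1 differed by 0.48 ± 0.09 (limma, adjusted p = 0.0011), and by 0.44 with its probe sets averaged, without a call (0.51). TUBB5 and TUBB2 were close to the threshold, at 0.34 ± 0.09 each (limma, adjusted p = 0.011 and 0.0098). TUBB5 was not called without replicate 3 of T65 (0.061), after quantile normalization (0.14), after median or spiked-control centring (0.21 and 0.16) or without the variance trend (0.078). TUBB2 was not called without replicate 3 of slr1 (0.050), after spiked-control centring (0.14) or without the variance trend (0.074). TUBB4, TUBB8, TUBB3 and TUBA1 were not called (limma, adjusted p = 0.073, 0.13, 0.062 and 0.26). Their differences were 0.20 ± 0.07, 0.23 ± 0.10, 0.15 ± 0.05 and 0.11 ± 0.06. The intervals ran from 0.04 to 0.36, from 0.02 to 0.44, from 0.04 to 0.26 and from -0.02 to 0.24. All slr1 arrays nonetheless lay above all T65 arrays for 7 members, the called ones with TUBB3 and TUBB4. Of all probe sets, 15.7% stood apart in that way. TUBB4 was called higher with dim probe sets left out (0.039) and when fitted on slr1 and T65 alone (0.0457). It was also called without replicate 1 of slr1 (0.047) or replicate 1 or 3 of gid2-1 (0.0365 and 0.0348). TUBB8 was called higher without replicate 3 of slr1 (0.0336). TUBB3 was called higher with dim probe sets left out (0.0267) or without replicate 1, 2 or 3 of gid2-1. With its probe sets averaged TUBB3 was called lower (-0.32, 0.0054).

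**Figure D2:**
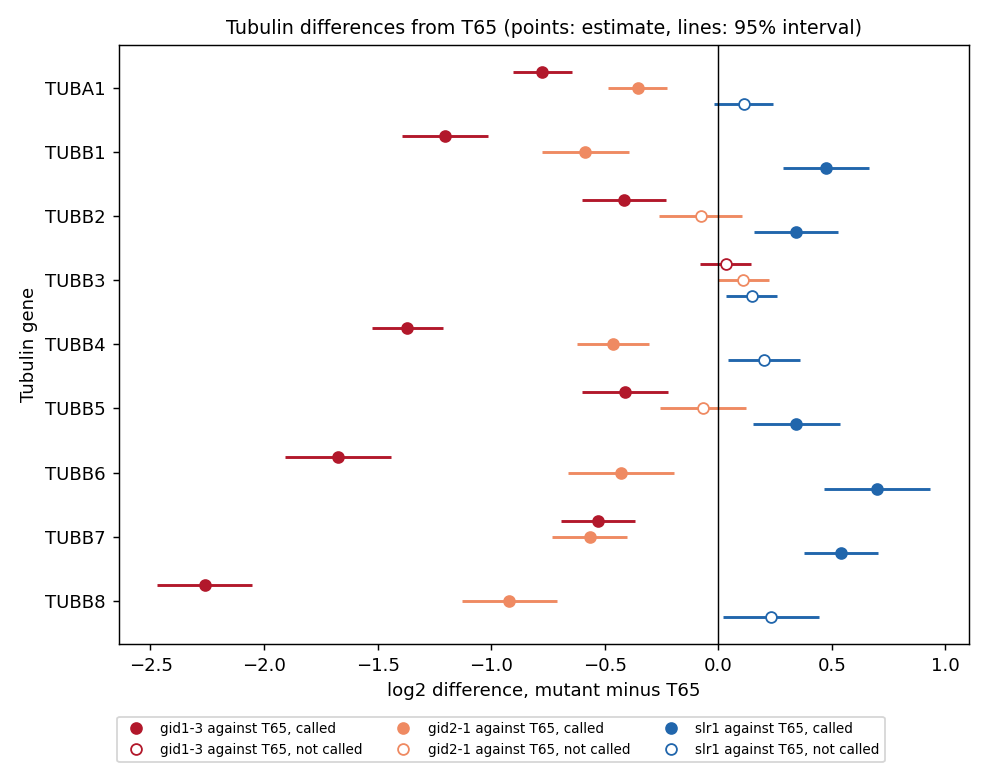
log2 difference of each tubulin gene, mutant minus T65, for gid1-3, gid2-1 and slr1, with points for the estimate, lines for the 95% interval, filled where called and open where not. TUBB8 and TUBB6 reach -2.26 and -1.67 in gid1-3, TUBB3 lies near 0, and the slr1 points lie right of 0, where TUBA1 moves to -0.01 after quantile normalization.

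The mutants were also set against each other; these contrasts reuse the same arrays as those against T65 and are not separate evidence. In gid1-3 against gid2-1, 7 of the 9 tubulins were lower and none higher, where 12.0% of all probe sets were called lower and 9.06% higher. TUBB8 averaged 854 ± 102 in gid1-3 and 2156 ± 169 in gid2-1, a difference of -1.34 ± 0.10 (limma, adjusted p = 7.4e-08). TUBB6 averaged 1644 ± 184 in gid1-3 and 3908 ± 553 in gid2-1, a difference of -1.25 ± 0.11 (limma, adjusted p = 5.3e-07). TUBB4 followed at -0.90 ± 0.07 (2.5e-07), TUBB1 at -0.62 ± 0.09 (9.3e-05) and TUBA1 at -0.42 ± 0.06 (9.1e-05), all limma adjusted p. The differences of TUBB5 and TUBB2, both -0.34 ± 0.09 (limma, adjusted p = 0.011 and 0.0097), were not called after median centring or without the variance trend, nor was TUBA1 after median centring. TUBB5 was also lost without replicate 3 of gid1-3 or replicate 1 of gid2-1, and TUBB2 without replicate 1 of gid1-3. With probe sets averaged, TUBB1 and TUBB4 were not called (-0.85 and -0.40, adjusted p = 0.12 and 0.45), and TUBB3 was called lower after quantile normalization (-0.19, 0.0049). TUBB7 was the member for which the gid mutants gave nearly the same signal, 3952 ± 223 in gid1-3 and 3861 ± 346 in gid2-1, a difference of 0.04 ± 0.08 with an interval from -0.13 to 0.20 (limma, adjusted p = 0.83).

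In slr1 against gid1-3, 8 of the 9 tubulins were higher, where 14.1% of all probe sets were called higher and 14.9% lower, and the median tubulin difference was 1.07. TUBB8 was 5.63-fold higher in slr1 (2.49 ± 0.10, limma adjusted p = 4.2e-11) and TUBB6 5.18-fold higher (2.37 ± 0.11, limma adjusted p = 2.3e-10). TUBB1 was 3.20-fold, TUBB4 2.97-fold and TUBB7 2.10-fold higher, and TUBA1 was 1.85-fold higher. In slr1 against gid2-1, 8 of 9 were higher as well, where 12.2% of all probe sets were called higher and 15.2% lower, with a median of 0.66. TUBB8 (1.15 ± 0.10, 2.2e-07), TUBB6 (1.13 ± 0.11, 9.3e-07), TUBB7 (1.11 ± 0.08, 2.5e-08) and TUBB1 (1.06 ± 0.09) differed by more than 2-fold there (limma, adjusted p). TUBB3 was the uncalled member in both contrasts, at 0.12 ± 0.05 in slr1 against gid1-3 and 0.04 ± 0.05 in slr1 against gid2-1 (limma, adjusted p = 0.12 and 0.69). It was called higher in slr1 against gid1-3 after quantile normalization (0.19, adjusted p = 0.0034), and lower in both contrasts with its probe sets averaged (-0.35 and -0.23, adjusted p = 0.0018 and 0.032). TUBB4 averaged in that way was not called in either (0.63 and 0.23, adjusted p = 0.15 and 0.68).

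**Figure D3:**
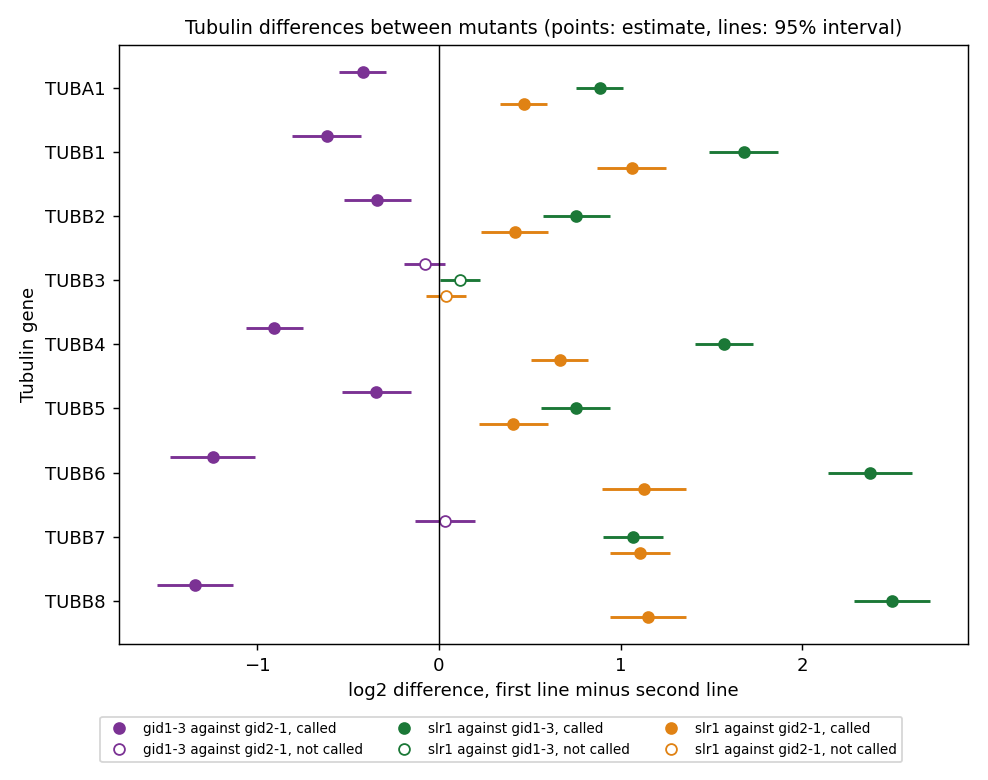
log2 difference of each tubulin gene between mutants, first-named line minus second, with points for the estimate, lines for the 95% interval, filled where called and open where not. The slr1 against gid1-3 points reach 2.49 for TUBB8 and 2.37 for TUBB6, the gid1-3 against gid2-1 point of TUBB7 is at 0.04, and the 3 TUBB3 points are open.

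Ordered by their means, the lines ran gid1-3, gid2-1, T65, slr1 from low to high for 7 members. How many of all probe sets have this order was not counted. For TUBB7 gid2-1 was marginally below gid1-3, and for TUBB3 T65 was lowest, with neighbours that were not called apart. Neighbours that did not pass in the other members were gid2-1 and T65 for TUBB2 and TUBB5, and T65 and slr1 for TUBA1, TUBB4 and TUBB8. The range between the lowest and highest line mean was widest for TUBB8, at 2.49 on the log2 scale, then TUBB6 at 2.37, TUBB1 at 1.68, TUBB4 at 1.57 and TUBB7 at 1.11. It was 0.89 for the alpha tubulin TUBA1, 0.76 for TUBB2, 0.75 for TUBB5 and 0.15 for TUBB3. TUBB1, TUBB6 and TUBB7 were called lower in gid1-3 and gid2-1 and higher in slr1. TUBA1, TUBB4 and TUBB8 were called lower in gid1-3 and gid2-1 and not called in slr1, and TUBB2 and TUBB5 were called lower in gid1-3 and higher in slr1 and not called in gid2-1. The 8 beta tubulins had median differences of -0.87 in gid1-3, -0.45 in gid2-1 and 0.34 in slr1 against T65. TUBA1 lay at -0.77, -0.35 and 0.11 in the same comparisons. With 1 alpha tubulin among the members, a difference between the alpha and beta types was not tested.

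Another alpha tubulin, TID1 (gene 4350197, also listed as TubA), has no number in its name and fell outside the rule; it was picked out after its values were seen. It measured 15055, 16694 and 16368 in gid1-3, 18064, 20136 and 14804 in gid2-1 and 15817, 18066 and 19127 in slr1, against 15786, 15712 and 17216 in T65. The arrays of all 4 lines overlapped, and TID1 was not called in any of the 6 comparisons. Its differences were -0.02 ± 0.10 in gid1-3, 0.11 ± 0.10 in gid2-1 and 0.12 ± 0.10 in slr1 (limma, adjusted p = 0.94, 0.52 and 0.53), with intervals from -0.23 to 0.20, from -0.10 to 0.33 and from -0.10 to 0.33. After quantile normalization it was called lower in gid1-3, at -0.24 (limma, adjusted p = 0.0023). All 3 of its probe sets are of the array's cross-hybridizing type, so they may also read other tubulins.

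Tubulin genes resemble each other closely, and 8 of the 9 representative probe sets carry no mark of cross-hybridization in their name. The exception is TUBB3, whose bright probe set is of the cross-hybridizing type, and its 2 plain, dimmer probe sets did not give the same picture. The first of them averaged 552 in gid1-3, 500 in gid2-1 and 495 in slr1, against 508 in T65, and was not called against T65 in any mutant. The other measured 369, 390 and 354 in gid1-3, 341, 294 and 285 in gid2-1 and 227, 174 and 162 in slr1, against 370, 390 and 407 in T65. On that probe set slr1 lay below every other line, at -1.07 ± 0.13 against T65 (limma, adjusted p = 1.7e-05), while gid1-3 and gid2-1 differed from T65 by -0.07 ± 0.13 and -0.35 ± 0.13 (0.78 and 0.059). With the 3 probe sets averaged, TUBB3 was called lower in slr1 (-0.32, limma adjusted p = 0.0054), and after quantile normalization its bright probe set was called lower in gid1-3 (-0.12, adjusted p = 0.048). The level of TUBB3 in slr1 therefore depended on the probe set read.

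TUBB7 has a second probe set of the cross-hybridizing type, and it moved as the first did, with differences of -0.45 ± 0.06 in gid1-3, -0.39 ± 0.06 in gid2-1 and 0.54 ± 0.06 in slr1, all called by limma. TUBB4 has a second, dimmer one of that type, called lower in gid1-3 at -0.44 ± 0.09 (limma, adjusted p = 0.0016) and not called in gid2-1 (-0.08, 0.67) or slr1 (0.25 ± 0.09, 0.084). A further probe set of TUBB1 (2.01 to 31.4) and of TUBB4 (3.32 to 62.8) had signals at the level of the reporter controls and gave no call. TUBA1, TUBB2, TUBB5, TUBB6 and TUBB8 have a single probe set each.

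**Figure D4:**
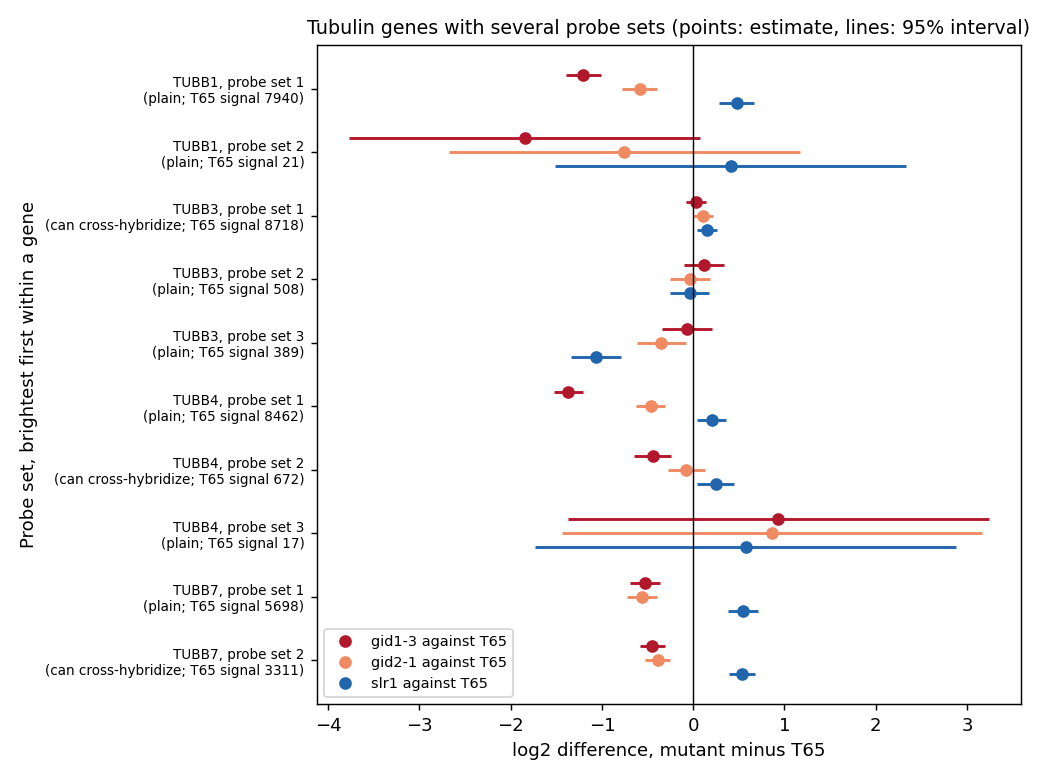
log2 difference, mutant minus T65, of every probe set of the 4 tubulin genes with several, brightest first, with points for the estimate and lines for the 95% interval. The TUBB7 probe sets match, the third probe set of TUBB3 stands at -1.07 in slr1, and the wide lines belong to probe sets at the level of the reporter controls.

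Other genes of the cytoskeleton were taken from name lists. Their counts stand beside the shares of all probe sets called lower and higher against T65 given above, and beside shares of the bright probe sets of 26.9% lower and 40.3% higher in gid1-3, 28.4% lower and 35.9% higher in gid2-1, and 22.2% lower and 27.2% higher in slr1. Of 2 genes of microtubule nucleation and binding, MOR1, which promotes microtubule growth, fell to 2014 ± 64.1 in gid1-3 and 2092 ± 101 in gid2-1, against 2811 ± 117 in T65. Those differences were -0.48 ± 0.06 and -0.43 ± 0.06 (limma, adjusted p = 2.0e-05 and 8.1e-05). TUBG2, a gamma tubulin of the nucleating complex, was not called against T65 in any mutant, but was in gid2-1 after spiked-control centring, where 2 of the 2 genes were lower.

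Of 32 kinesins measured of 35 in the gene table, motor proteins that run along microtubules, 26 fell and 1 rose in gid1-3, with a median difference of -1.04. KIN14H fell to 267 ± 24.7 in gid1-3 against 1807 ± 68.3 in T65 (-2.76 ± 0.07, limma adjusted p = 7.4e-13). KIN14B averaged 11.5 ± 7.69 in gid1-3, below the 95th percentile of the reporter controls, and 149 ± 14.9 in T65. KIN14K rose to 306 ± 13.7 in gid1-3 against 210 ± 30.7 in T65 (0.56 ± 0.13, limma adjusted p = 0.0043), a call lost after spiked-control centring. Its probe set is of the cross-hybridizing type. The call was also lost without probe sets of that type and with the probe sets of a gene averaged. In gid2-1, 10 kinesins fell and 1 rose, with a median of -0.24, and 21 fell after spiked-control centring. The share called lower there was near the 28.4% of the bright probe sets and above the 12.4% of all probe sets. KIN14L fell to 783 ± 59.4 in gid2-1 against 1847 ± 40.7 in T65, and KIN14O rose to 374 ± 47.9 against 192 ± 24.0. In slr1, 9 kinesins rose and 8 fell (5 fell after median centring), with a median of 0.08, among them KIN14O at 0.98 ± 0.18 and KIN7F at -0.93 ± 0.10. The kinesin shares called in slr1, in either direction, were near those of the bright probe sets. They were above the shares of all probe sets, 9.10% higher and 10.8% lower. The kinesins named here were dimmer than the bright probe sets, which are thus no matched background for them.

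Of 27 genes of the actin cytoskeleton measured of 31, the receptor mutant gid1-3 had 14 lower and 3 higher, gid2-1 had 10 lower and 5 higher, and slr1 had 5 lower and 4 higher than T65, with medians of -0.52, -0.21 and -0.07. ADF11, an actin-depolymerizing factor, fell to 650 ± 36.4 in gid1-3, 249 ± 71.8 in gid2-1 and 2207 ± 152 in slr1, against 4386 ± 131 in T65. ADF5, another such factor, rose in all 3 mutants, by 1.01 in gid1-3, 1.38 in gid2-1 and 1.42 in slr1 on the log2 scale (limma, adjusted p = 5.3e-09, 1.9e-10 and 5.2e-10). FH10, a formin, rose to 546 ± 23.1 in gid2-1 against 133 ± 38.5 in T65 (2.09 ± 0.20, limma adjusted p = 8.1e-07). Several actin genes lay near the threshold. With arrays centred on their medians slr1 had 1 higher and 2 lower and gid2-1 had 3 higher, after spiked-control centring gid1-3 and slr1 had 1 higher each, and without the variance trend gid1-3 had 1 higher, gid2-1 3 higher and slr1 1 higher and 3 lower. The actin shares called in slr1 were below those of the bright probe sets in both directions. They were above the shares of all probe sets, 9.10% higher and 10.8% lower. Some actin genes, such as FH10, were dimmer than the bright probe sets. The 3 higher genes of gid1-3 became 1 without replicate 1 or 2 of gid1-3 or replicate 3 of T65, and the 5 higher genes of gid2-1 became 3 without replicate 3 of T65. In slr1 the 4 higher genes became 2 without replicate 3 of slr1 or of T65, and the 5 lower became 3 without replicate 1 of slr1 or replicate 1 or 2 of T65.

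Of 11 genes for wall synthesis guided by microtubules, mainly cellulose synthases, 10 fell and 1 rose in gid1-3 (median -1.75), 8 fell in gid2-1 (median -0.72) and 3 fell in slr1 (median 0.03; 1 after median centring). In slr1 none rose, save 1 after quantile normalization, with dim probe sets left out or with the replicate number as a block, 1 without replicate 1 of slr1 or replicate 1 or 2 of gid1-3, and 2 when fitted on the arrays of slr1 and T65 alone. The share of these genes called lower in slr1 was near the 22.2% of the bright probe sets and above the 10.8% of all probe sets. CESA7, a cellulose synthase of secondary walls, fell to 376 ± 117 in gid1-3 and 1241 ± 167 in gid2-1, against 4200 ± 341 in T65. CESA8 and CESA1, cellulose synthases grouped with the primary wall, differed by -0.43 ± 0.06 and -0.27 ± 0.06 in slr1 (limma, adjusted p = 5.1e-05 and 0.0026), and CESA1 was not called after median centring (adjusted p = 0.13). The gene that rose in gid1-3, CESA2, did so by 0.31 ± 0.10 and was not called without replicate 1 or 2 of gid1-3 or replicate 1 or 3 of T65, after spiked-control centring, without the variance trend or with probe sets averaged.

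**Figure D5:**
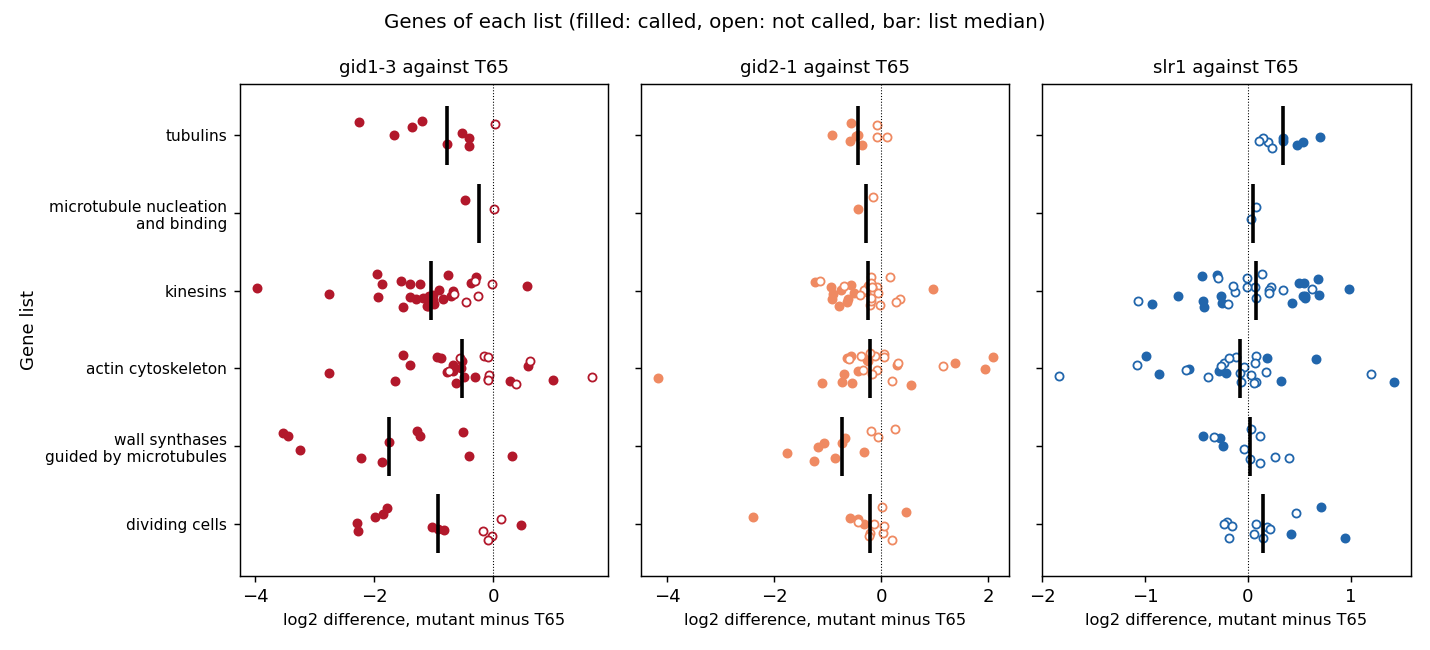
log2 difference of each gene, mutant minus T65, for the tubulins and 5 related lists in 3 panels with separate axis ranges, filled where called and open where not, with a bar at the list median. The tubulin medians stand at -0.77 in gid1-3, -0.43 in gid2-1 and 0.34 in slr1, where the kinesins of slr1 lie on both sides of 0.

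Markers of dividing cells and of secondary walls were read on the same arrays. Of 18 genes on the dividing-cell list, 13 were measured. Among them 8 fell and 1 rose in gid1-3, 4 fell and 1 rose in gid2-1, and 3 rose in slr1. Their medians were -0.94, -0.21 and 0.14. The list includes KRP1, KRP4, KRP5 and KRP6, which are inhibitors of cyclin-dependent kinases and not markers of division. KRP6 fell in gid1-3 (-0.83, limma adjusted p = 4.1e-06), and no other KRP call was made against T65. The gid2-1 share called lower and the slr1 share called higher were near or below those of the bright probe sets. Both were above the shares of all probe sets, 12.4% and 9.10%. CYCB1-1 and PCNA, given below, were dimmer than the bright probe sets, which are thus no matched background for them. With spiked-control centring 8 fell in gid2-1. The higher gene of both gid mutants, the A-type cyclin CYCA1-4, was not called in either after spiked-control centring or without replicate 2 of T65. In gid2-1 it was also not called after median centring, without the variance trend, or without replicate 1 or 2 of that line. CYCB1-1, a mitotic cyclin, averaged 257 ± 24.2 in gid1-3 against 1256 ± 26.2 in T65, and PCNA, the replication clamp, 1695 ± 57.4 in slr1 against 878 ± 29.9 in T65. The summed signal of the 6 measured of 8 dividing-cell markers was 1659 to 1748 in gid1-3, 3554 to 3701 in gid2-1 and 5806 to 6351 in slr1, against 4352 to 4609 in T65. Against T65, 5 of these 6 were lower in gid1-3, 3 lower in gid2-1 and 2 higher in slr1. CYCB1-3 lay below the 95th percentile of the reporter controls in gid1-3 and gid2-1. The sum thus had the same order of lines as TUBB6 and most other tubulins.

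The summed signal of the 3 secondary-wall markers CESA4, CESA7 and CESA9 was 762 to 1054 in gid1-3, 3424 to 4097 in gid2-1 and 9196 to 11317 in slr1, against 9321 to 9980 in T65. All 3 were called lower in gid1-3 and in gid2-1, and none was called in slr1. By their means all 3 ran gid1-3, gid2-1, T65, slr1 from low to high, the order of the dividing-cell sum and of most tubulins. OSH1 and OSH71 were the 2 measured of 3 shoot meristem markers. Their sum was 752 to 788 in gid1-3, 1805 to 2001 in gid2-1 and 660 to 759 in slr1, against 1681 to 1812 in T65. The slr1 range overlapped that of gid1-3, and the gid2-1 range that of T65. Both markers were called lower in gid1-3 and in slr1. In gid2-1 OSH1 averaged 1106 against 1214 in T65, and OSH71 785 against 523. The 5 measured of 6 leaf markers summed to 82432 to 90199 in gid1-3, 51770 to 68605 in gid2-1 and 70138 to 93387 in slr1, against 70041 to 75161 in T65, with the entry RBCS1 at the reporter level in all lines. The 4 measured of 5 root markers summed to 682 to 719 in gid1-3, 1790 to 1941 in gid2-1 and 846 to 950 in slr1, against 585 to 668 in T65, most of it Lsi1. The 5 measured of 6 anther markers summed to 16497 to 17180 in gid1-3, 15342 to 17427 in gid2-1 and 10102 to 12716 in slr1, against 10604 to 12438 in T65. Nearly all of that was the entry OsCP1, while RTS, TDR, CP1 and C6 averaged 4.11 to 35.9 over the lines, at the reporter level. The part of these cell types in the tubulin differences was not tested, and in whole shoots fewer cells of a type and less tubulin RNA per cell cannot be told apart.

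The genes most like a tubulin over the 12 arrays were ranked by the root mean square difference of log2 signals, each gene centred on its own mean, among 2209 named genes at or above the median signal. Nearest to TUBA1 was SLR1, the DELLA gene itself, at 0.079, followed by BADH2, a betaine aldehyde dehydrogenase, at 0.088 and RLA1 at 0.090. SLR1 averaged 827 ± 10.4 in gid1-3, 1135 ± 38.2 in gid2-1 and 1565 ± 82.5 in slr1, against 1295 ± 60.3 in T65. Nearest to TUBB8 were pla2-II at 0.168, MAN1 at 0.182 and APY3 at 0.192. MAN1 averaged 476 ± 11.8 in gid1-3, 974 ± 63.8 in gid2-1 and 2161 ± 68.4 in slr1, against 2224 ± 46.5 in T65. Among the tubulins TUBB8 was nearest to TUBB6 (0.308), TUBB4 (0.397) and TUBB1 (0.436), and TUBA1 to TUBB2 (0.145) and TUBB5 (0.189). The distances describe these 12 arrays, which share their lines and scaling, and carry no test.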

How the data were processed

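The authors deposited 1 table of array signals, linear intensity per probe set, in which the 2% trimmed mean was 500.1 on all 12 arrays; the software is not given in the sources used here. Of 57381 probe sets, 187 controls were left out. Signals were floored at 1 (0.929% of values lay below it) and log2 transformed, and lmFit and eBayes with a variance trend (limma 3.58.1, R 4.3.3) were fitted to all 12 arrays with 1 mean per line, with Benjamini-Hochberg adjustment over 57194 probe sets. Probe sets were named from the platform annotation, updated through the rice gene table, where they had 1 gene (22436). The tubulins were all named; from each other list, the named genes were the most changed called ones. Members and lists were chosen with earlier results of these data known. The fit was tested on simulated data. Replicate numbers are not known to pair the samples. Deviations of same-numbered arrays correlated from -0.28 to 0.21 over 18 pairs, and those of other-numbered arrays from -0.28 to 0.27 over 36. Correlations above 0.1 numbered 4 in each set, and these ranges cannot exclude pairing. The number of arrays limits the precision. Alternatives were other scalings, filters, variance models, pseudocounts, probe-set rules and arrays left out; those for the related lists were chosen after seeing the data.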

Additional observations from a re-analysis of the deposited data

How the results depend on the processing

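The number of tubulins called changed by more than 1.5 times when a 2-fold change was also asked for: 4 in gid1-3, 0 in gid2-1 and 0 in slr1 against T65, 2 in gid1-3 against gid2-1, 5 in slr1 against gid1-3 and 4 in slr1 against gid2-1, in place of 8, 6, 5, 7, 8 and 8. In slr1 against T65 it was 3 with arrays centred on the spiked controls and 3 without the variance trend, and in gid1-3 against gid2-1 it was 4 with arrays centred on their medians. With each array left out in turn the counts ran from 8 to 8, 6 to 6, 4 to 7, 6 to 7, 8 to 8 and 8 to 8 in the same order of comparisons. The count in slr1 against T65 was 7 without replicate 1 or 3 of gid2-1 and 4 without replicate 3 of T65. With the replicate number as a block the counts stayed at 8, 6, 5, 7, 8 and 8, and no call or direction of a member changed; the numbers are not known to pair the samples, and 4 of 12 arrays correlated best with their own number.

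Directions that turned were those of members not called in the comparison, save TUBB4 in gid2-1 with its probe sets averaged (0.11), where the third lies at the reporter level. TUBB3 turned in gid1-3 against T65 after quantile normalization (-0.12) and spiked-control centring (-0.19), and in gid2-1 against T65 with spiked-control centring (-0.087), without cross-hybridizing probe sets (-0.035) and averaged (-0.091). Without cross-hybridizing probe sets and averaged it was -0.039 and -0.32 in slr1 against T65, 0.15 and 0.12 in gid1-3 against gid2-1, -0.16 and -0.35 in slr1 against gid1-3, and -0.0034 and -0.23 in slr1 against gid2-1. It was also 0.039 with median centring in gid1-3 against gid2-1 and -0.00031 after quantile normalization in slr1 against gid2-1. TUBA1 in slr1 against T65 was -0.012 after quantile normalization, and TUBB7 in gid1-3 against gid2-1 was -0.011 averaged. With arrays left out, TUBB2 and TUBB5 in gid2-1 against T65 ran from -0.14 to 0.0078 and from -0.16 to 0.040, and TUBB7 in gid1-3 against gid2-1 from -0.034 to 0.10. TID1 against T65 turned with median centring (0.035) and averaged (0.032) in gid1-3, where it ran from -0.048 to 0.027 with arrays left out, with spiked-control centring in gid2-1 (-0.086) and after quantile normalization in slr1 (-0.041). The cause was not tested.

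Spiked-control centring moved the median of all probe sets to -0.22 in gid1-3, -0.15 in gid2-1 and -0.11 in slr1 against T65, and 0.12 in slr1 against gid1-3. It gave 4716 higher and 11749 lower probe sets in gid1-3 against T65 (8068 and 8810 otherwise), 4682 and 9676 in gid2-1 (7836 and 7103), 3552 and 6845 in slr1, and 9211 and 5601 in slr1 against gid1-3. All probe sets called at 2-fold numbered 6385, 4919 and 2551 in gid1-3, gid2-1 and slr1 against T65, of 16878, 14939 and 11380, and median centring left 7348 in slr1. Under the other alternatives, 524 values of a member in a comparison kept their direction and call. Without turning, 47 lost a call, including those under 2-fold where that change was asked for, and 5 gained one. Another 18 turned, counted as such whether or not their call also changed. With arrays left out these numbers were 632, 5, 7 and 4.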
